A study of Homo sapiens with 6 samples.

Results

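Nebulette (NEBL) and 9 genes that encode parts of the cardiac sarcomere were followed in H1 human embryonic stem cells grown on 2 laminin coatings. The 10 genes were given by name: NEBL because its RNA was higher on the mixed coating in these libraries, and TNNT2, TNNI1, TNNC1, MYH6, MYH7, ACTC1, TTN, MYL4 and MYL7 because of the proteins they encode. All 10 were found among the 60499 gene IDs, and 5 of them (NEBL, TNNT2, TNNC1, ACTC1 and TTN) passed the filter on low counts, as did 17608 genes in all. The filter is passed through either group, so the 5 genes that passed it are not the whole set. The question was whether the higher NEBL level went with higher levels of the other sarcomere genes.

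H1 is an established embryonic stem cell line. One group of 3 wells was coated with laminin LN-521 and the other group of 3 wells with LN-521 and LN-221 together. LN-521 is a laminin used to support pluripotent stem cells, and LN-221 is a laminin isoform of the basement membrane around heart and skeletal muscle fibres. All 6 wells received NutriStem medium for 4 days, and total RNA was collected at confluence. No differentiation treatment is described for either group. Both groups come from this 1 line, and nothing in the sample labels says whether the wells of a group came from separate cell stocks, so the p-values measure the spread between wells. The libraries held 20606494 to 26836727 counts each.

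The sarcomere is the contractile unit of striated muscle. Thin filaments of actin, tropomyosin and troponin slide past thick filaments of myosin, titin spans the structure as a spring, and the Z-disc anchors the thin filaments. Nebulette is the cardiac member of the nebulin family and binds actin at the Z-disc. The same gene also gives a shorter LIM-domain form, made from an upstream start, that is found at cell adhesions in tissues other than muscle. Pluripotent stem cells hold no sarcomeres, although they express several genes of the thin filament and its non-muscle relatives.

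NEBL (ENSG00000078114) lies on chromosome 10 at chr10:20779973-21174187 on the minus strand of GRCh38, with 13 transcripts in GENCODE 29. Of these, 4 are protein coding, from 448 to 9216 bases. The transcript NEBL-203 starts at position 21174187 and is 3008 bases long. NEBL-202 starts inside the gene at position 20897602 and is 9216 bases long. The 250 bases before 3 RefSeq start sites (GRCh38.p14) are shown, each read on the strand of its gene. They show what lies before one of the upstream starts of the gene that was higher, and before the starts of 2 cardiac genes for which no rise was detected. In the NEBL window (chr10:21174188-21174437, minus strand) every CG dinucleotide is in capitals. In the TTN window (chr2:178807424-178807673, minus strand) the capitals mark a MEF2 box, the motif of the MEF2 muscle transcription factors. In the MYL7 window (chr7:44141333-44141582, minus strand) they mark a CArG box, the motif of serum response factor.
NEBL: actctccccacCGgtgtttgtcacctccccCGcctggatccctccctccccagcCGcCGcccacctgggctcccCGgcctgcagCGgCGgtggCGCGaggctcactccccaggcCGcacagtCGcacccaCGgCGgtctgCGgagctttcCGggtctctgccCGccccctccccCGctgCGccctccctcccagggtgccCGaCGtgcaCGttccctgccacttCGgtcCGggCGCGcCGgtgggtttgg
TTN: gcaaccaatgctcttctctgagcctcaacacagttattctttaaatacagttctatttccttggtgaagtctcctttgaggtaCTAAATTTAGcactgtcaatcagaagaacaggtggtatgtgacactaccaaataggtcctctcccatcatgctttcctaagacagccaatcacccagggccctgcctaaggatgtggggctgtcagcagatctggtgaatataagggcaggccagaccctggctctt
MYL7: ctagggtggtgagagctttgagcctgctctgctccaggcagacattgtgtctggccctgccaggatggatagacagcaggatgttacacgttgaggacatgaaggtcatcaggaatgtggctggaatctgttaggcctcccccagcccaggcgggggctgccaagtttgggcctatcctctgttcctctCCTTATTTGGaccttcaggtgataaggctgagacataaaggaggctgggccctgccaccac
The NEBL window held 26 CG dinucleotides and was 75.2% G or C. The TTN window held 0 CG dinucleotides at 46.8% G or C, and the MYL7 window held 2 at 56.4%. Over all 35116 windows of the same length in the RefSeq table the medians were 11 CG dinucleotides and 58.0% G or C. The RefSeq table holds 5 NEBL starts, and their windows ran from 0 to 33 CG dinucleotides and from 36.0% to 75.2% G or C. The highest values were before the starts at positions 21174187 and 21174091. The window before the most upstream start, at position 21174931, held 5 CG dinucleotides at 41.2% G or C, and that before the start at position 21172979 held 11 at 60.0%. The lowest values were before the internal start at position 20897311, where all 250 bases lie within exons of coding transcripts in GENCODE 29. CArG and MEF2 boxes, searched on both strands by their usual consensus, occurred in 1.16% and 0.515% of all windows, and a TATA box (TATAAA on either strand) in 10.7%. None of the 5 NEBL windows held one of these 3 motifs as searched. An ACTC1 window held a CArG box and a TATA box, and the MYH6 window a TATA box. The TNNT2 window held none of them. These matches describe letters, not binding. TNNI1, TNNC1, MYH7 and MYL4 had no entry in the table.

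On LN-521 alone NEBL stood at 88.6, 79.5 and 68.5 CPM (counts scaled to library size, with TMM factors between libraries) in replicates 1, 2 and 3. On the mixed coating it stood at 153.3, 156.6 and 157.5 CPM. The groups did not overlap: the lowest well on the mixed coating was above the highest well on LN-521 alone. Means were 78.8 ± 10.0 and 155.8 ± 2.20 CPM (SD, n = 3 each), a ratio of 1.98. In TPM, which also divides by transcript length, NEBL was at 15.84, 14.09 and 11.48 against 27.43, 27.95 and 27.33, a ratio of 2.00. The fitted log2 fold change was 0.98 ± 0.07 (SE), with a 95% interval from 0.83 to 1.14. It ranged from 0.89 without LN-521 replicate 3 to 1.07 without LN-521 replicate 1. These values chose the gene and are given as a description. Every NEBL count was a whole number, so no reads were divided between NEBL and another gene. The antisense gene NEBL-AS1, which shares 94 exonic bases with NEBL, had 2 counts in 1 library and 0 in the other 5.

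**Figure D1:**
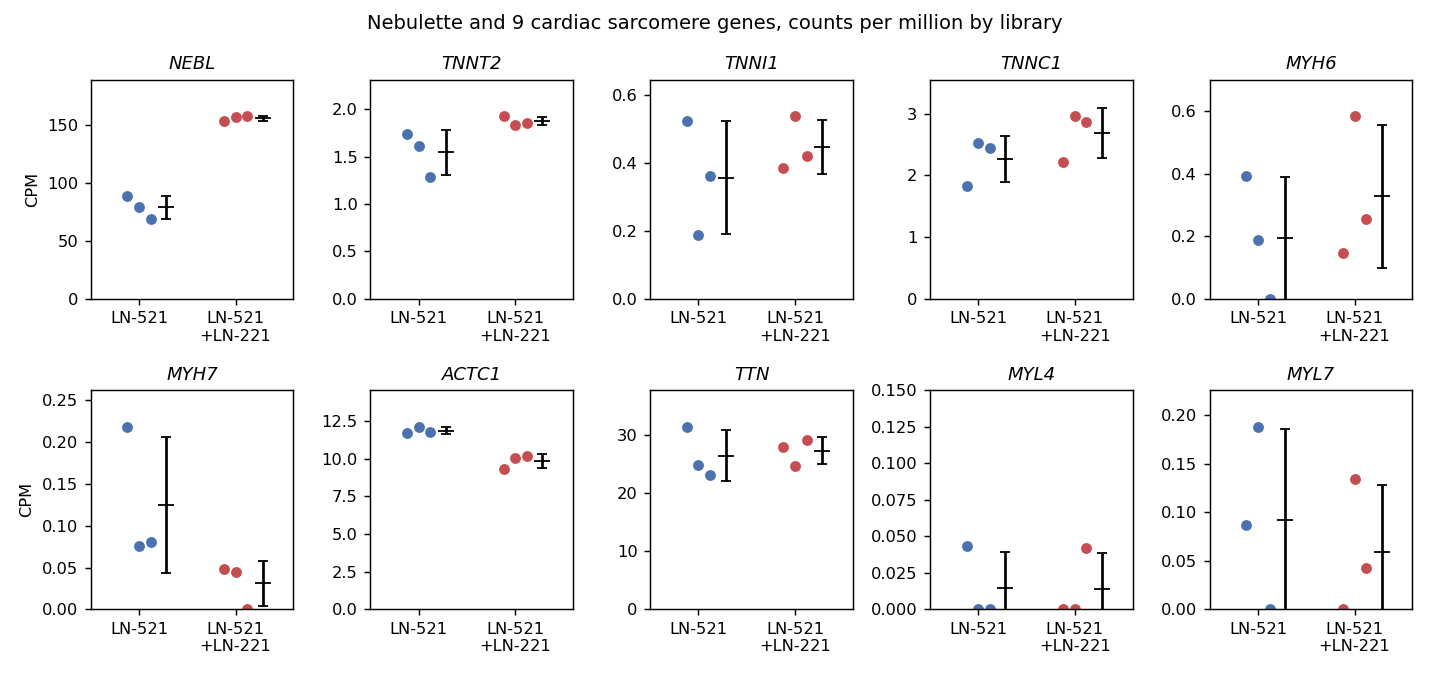
CPM (y axis, from 0, with its own scale in each panel) of NEBL and 9 cardiac sarcomere genes in each library, LN-521 in blue and LN-521+LN-221 in red, with black marks for the mean and bars for 1 SD (n = 3 each). NEBL moved from between 68.5 and 88.6 to between 153.3 and 157.5 CPM, while the mean CPM of the 4 other tested genes on the mixed coating was 0.83 to 1.21 times that on LN-521 alone.

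None of the 4 other members that were tested passed the threshold, an adjusted p of 0.05 in edgeR's quasi-likelihood test with Benjamini-Hochberg adjustment over all genes. Over all genes 446 of 17608 passed, 2.53%. Of the 4 genes, 1 had an unadjusted p under 0.05 (beside 2561 of 17608 genes), and DESeq2 likewise called 0. The median of their log2 fold changes was 0.14, beside -0.0011 over all genes tested. CPM did not overlap between the coatings for 2 of the 4, TNNT2 (higher) and ACTC1 (lower), beside 19.9% of all genes tested (10.2% higher and 9.68% lower). With 4 genes no share can be read from this.

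The troponin genes of the set, TNNT2, TNNC1 and TNNI1, were low on both coatings, at 4.47 TPM or less in every library. TNNT2 (ENSG00000118194, chromosome 1), cardiac troponin T, which ties the troponin complex to tropomyosin, was at 1.74, 1.62 and 1.28 CPM on LN-521 alone and 1.93, 1.84 and 1.86 CPM on the mixed coating. The mixed coating was higher in all 3 wells by CPM, and the ranges overlapped by TPM. The log2 fold change was 0.28 ± 0.22 (SE; 95% interval -0.19 to 0.75; edgeR adjusted p = 0.625). These values rest on 32 to 44 counts per library. TNNT2 shares 81 exonic bases with LAD1 on the same strand, and LAD1 did not pass the threshold (0.083, edgeR adjusted p = 0.727).

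TNNC1 (ENSG00000114854, chromosome 3), the calcium-binding troponin of heart and slow muscle, was at 1.83, 2.52 and 2.45 CPM on LN-521 alone and 2.22, 2.96 and 2.87 CPM on the mixed coating. The groups overlapped. Its log2 fold change was 0.24 ± 0.20 (SE; 95% interval -0.18 to 0.66; edgeR adjusted p = 0.638). TNNI1 (ENSG00000159173, chromosome 1), the inhibitory troponin of slow muscle and fetal heart, had 12, 5 and 9 counts on LN-521 alone and 8, 12 and 10 on the mixed coating. It did not pass the filter, and the groups overlapped.

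ACTC1 (ENSG00000159251, chromosome 15), the cardiac alpha-actin of the thin filament, was at 11.7, 12.1 and 11.8 CPM on LN-521 alone and 9.34, 10.0 and 10.2 CPM on the mixed coating. All 3 wells on the mixed coating were below all 3 wells on LN-521, by CPM and by TPM. The log2 fold change was -0.27 ± 0.10 (SE; 95% interval -0.47 to -0.060), with an unadjusted p of 0.0146 and an adjusted p of 0.200 (edgeR). ACTC1 therefore did not pass the threshold, and its interval does not reach 0.

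TTN (ENSG00000155657, chromosome 2), the giant spring protein titin, was at 31.4, 24.8 and 23.2 CPM on LN-521 alone and 28.03, 24.7 and 29.1 CPM on the mixed coating. The groups overlapped, and the log2 fold change was 0.05 ± 0.10 (SE; 95% interval -0.17 to 0.27; edgeR adjusted p = 0.886). Its sign turned to -0.040 without LN-521 replicate 3 and to -0.0057 without LN-521+LN-221 replicate 3. By TPM the picture differed: TTN was at 0.58, 0.27 and 0.47 on LN-521 alone and 0.61, 0.77 and 0.87 on the mixed coating, without overlap and with a ratio of 1.70. The 2 scales part because TPM depends on the transcript length to which the reads were assigned. The mean TTN transcript length implied by counts and TPM was 47291, 67142 and 38135 bases on LN-521 alone. On the mixed coating it was 39035, 26027 and 26213 bases. This length is the ratio of counts to TPM, rescaled in each library, so it restates the TPM difference and is no separate evidence. TTN has 16 coding transcripts in GENCODE 29, of 519 to 109224 bases. The antisense gene TTN-AS1, which overlaps 11381 exonic bases of TTN, had 375 to 433 counts on LN-521 alone and 379 to 444 on the mixed coating (log2 fold change 0.12, edgeR adjusted p = 0.644). The library kit marks strand, but the sources used here do not say whether the counting used it, so reads of TTN and TTN-AS1 may not be separated.

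The myosin genes of heart muscle were near the limit of detection. MYH6 (ENSG00000197616, chromosome 14), the alpha heavy chain, had estimated counts of 9.2, 5 and 0 on LN-521 alone and 2.51, 12.74 and 6 on the mixed coating. MYH7 (ENSG00000092054, chromosome 14), the beta heavy chain, had 4.8, 2 and 2 on LN-521 alone and 1.49, 1.26 and 0 on the mixed coating. The MYH6 groups overlapped. MYH7 was lower on the mixed coating in every well, without overlap, and was at or below 2 counts in 5 of 6 libraries. Both genes had counts that were not whole in 3 libraries each. The 2 genes are close copies of each other, and the division of such reads between them is uncertain. The atrial light chains were lower still: MYL4 (ENSG00000198336, chromosome 17), the essential light chain, had 1 count in each of 2 libraries and 0 in the other 4, and MYL7 (ENSG00000106631, chromosome 7), the regulatory light chain, had 0 to 5 counts per library. A count of 0 allows up to 3 counts, which is 0.113 to 0.144 CPM in these libraries, counting error only. In a fit without the filter, in which 718 of 36261 genes (1.98%) passed, TNNI1 (0.33, edgeR adjusted p = 0.820), MYH6 (0.76, adjusted p = 0.722), MYH7 (-1.86, adjusted p = 0.722), MYL4 (0.085, adjusted p = 0.982) and MYL7 (-0.61, adjusted p = 0.883) did not. At these counts none of the 5 genes differed past the threshold, MYH7 included.

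Per transcript length NEBL stood above the other 9 genes in every library. Its TPM averaged 20.7 over the 6 libraries, followed by ACTC1 at 4.22, TNNC1 at 3.69, TNNT2 at 1.55 and TTN at 0.595. The ranges of NEBL and ACTC1, of TNNC1 and TNNT2, and of TNNT2 and TTN did not overlap, whereas ACTC1 and TNNC1 did. TNNI1 (0.32), MYL7 (0.163), MYH6 (0.0417), MYL4 (0.0283) and MYH7 (0.0117) followed, each overlapping the gene before it. The 9 genes together summed to 9.72 to 10.8 TPM on LN-521 alone and 9.94 to 11.4 TPM on the mixed coating. NEBL alone exceeded that sum in all 6 libraries. TPM levels here are shares of a total of which 7SL RNA and its pseudogenes took 30.1% to 37.3%.

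**Figure D2:**
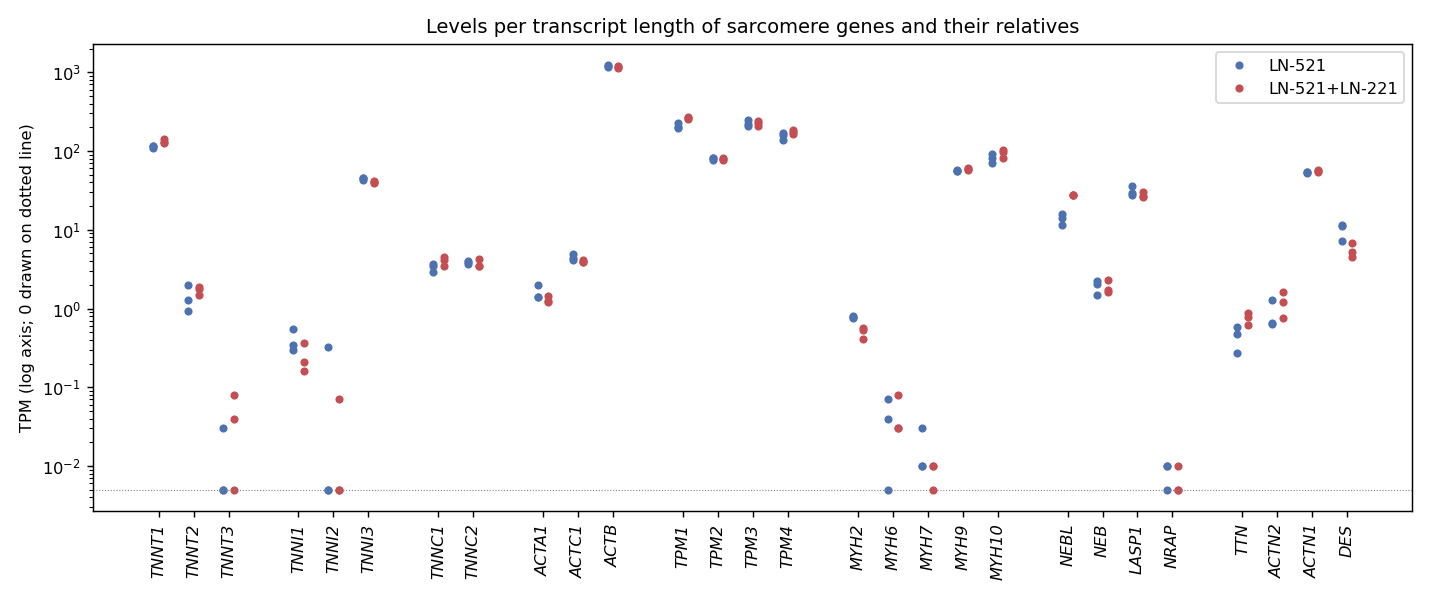
TPM on a log axis for the sarcomere genes and their relatives in each library, LN-521 in blue and LN-521+LN-221 in red, with values of 0 drawn on the dotted line. Within the troponin families TNNT1 and TNNI3 stood far above TNNT2 and TNNI1, and the NEBL groups stood apart, at 11.48 to 15.84 against 27.33 to 27.95 TPM.

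A further 66 sarcomere genes were grouped by where their proteins sit. Of these, 39 were below 1 TPM in every library, 5 were at 0 in all 6, and 39 passed the filter. Of the 39 tested, 1 was higher and 2 were lower on the mixed coating past the threshold (7.69%, beside 2.53% of all genes, 1.4% higher and 1.14% lower), and 15 had a positive and 24 a negative log2 fold change. The median was -0.032. CPM did not overlap for 10 of the 39, beside 19.9% of all genes. At an unadjusted p under 0.05 there were 7 of 39, beside 2561 of 17608.

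Among 13 thin filament genes, 8 were tested with a median of -0.040, and TPM1 rose. TPM1 (ENSG00000140416), a tropomyosin made in muscle and in other cells, was at 356, 360 and 326 CPM on LN-521 alone and 419, 425 and 442 CPM on the mixed coating. The groups did not overlap. Its log2 fold change was 0.30 ± 0.05 (SE; 95% interval 0.19 to 0.42; edgeR adjusted p = 0.00364). The call was lost without LN-521 replicate 3 (0.26, adjusted p = 0.0510) and with limma on TPM (adjusted p = 0.256 to 0.594), and overlapping antisense genes of TPM1 had at most 9 counts. TNNT1, the slow skeletal troponin T, was at 110.3 to 116.1 TPM on LN-521 alone and 127.8 to 140.1 TPM on the mixed coating, without overlap (0.16 ± 0.06, SE; edgeR adjusted p = 0.200), and passed without LN-521 replicate 2. TNNI3, the cardiac inhibitory troponin, lies next to TNNT1 on chromosome 19 and was at 42.3 to 45.39 TPM against 39.58 to 41.92 TPM (-0.16 ± 0.09, SE; edgeR adjusted p = 0.419). ACTA1, the skeletal alpha-actin, differed by -0.33 ± 0.19 in log2 units (SE; edgeR adjusted p = 0.461).

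Among 16 thick filament genes, 15 were below 1 TPM in every library, 5 were tested with a median of -0.22, and MYH2 fell. MYH2 (ENSG00000125414), a fast skeletal myosin heavy chain, was at 5.53, 5.98 and 6.02 CPM on LN-521 alone and 2.84, 4.08 and 3.67 CPM on the mixed coating. All wells on the mixed coating were below those on LN-521. The log2 fold change was -0.72 ± 0.15 (SE; edgeR adjusted p = 0.0145). The call was lost without LN-521 replicate 3 (adjusted p = 0.0844), without LN-521+LN-221 replicate 1 (-0.59, adjusted p = 0.101) or replicate 3 (adjusted p = 0.0650), and with limma without its TPM filter (adjusted p = 0.832). MYH2 counts were not whole in 3 libraries and the gene has near-identical neighbours in the skeletal myosin cluster, so its level is uncertain.

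Among 24 Z-disc genes, where nebulette itself sits, 17 were tested with a median of -0.015, and DES fell. DES (ENSG00000175084), the intermediate filament protein desmin that links Z-discs, was at 12.9, 18.2 and 20.7 CPM on LN-521 alone and 7.32, 9.06 and 9.04 CPM on the mixed coating. The groups did not overlap, and LN-521 replicate 1 was the closest to the other coating. The log2 fold change was -1.03 ± 0.16 (SE; 95% interval -1.37 to -0.68; edgeR adjusted p = 0.00303), similar in size to that of NEBL and opposite in sign. The call was lost without LN-521 replicate 2 (-0.99, adjusted p = 0.0595) and with limma on TPM (adjusted p = 0.286 to 0.739). ACTN2, the muscle alpha-actinin of the Z-disc, had 46 to 62 counts on LN-521 alone and 49 to 62 on the mixed coating (0.22 ± 0.20, SE; edgeR adjusted p = 0.680). MYOT and CSRP3, Z-disc genes of mature muscle, were at 0 in all 6 libraries. None of the 7 M-band genes tested (of 10) passed, with a median of 0.067. By unadjusted p, 1 of these 7 was under 0.05, beside 2561 of 17608 genes.

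**Figure D3:**
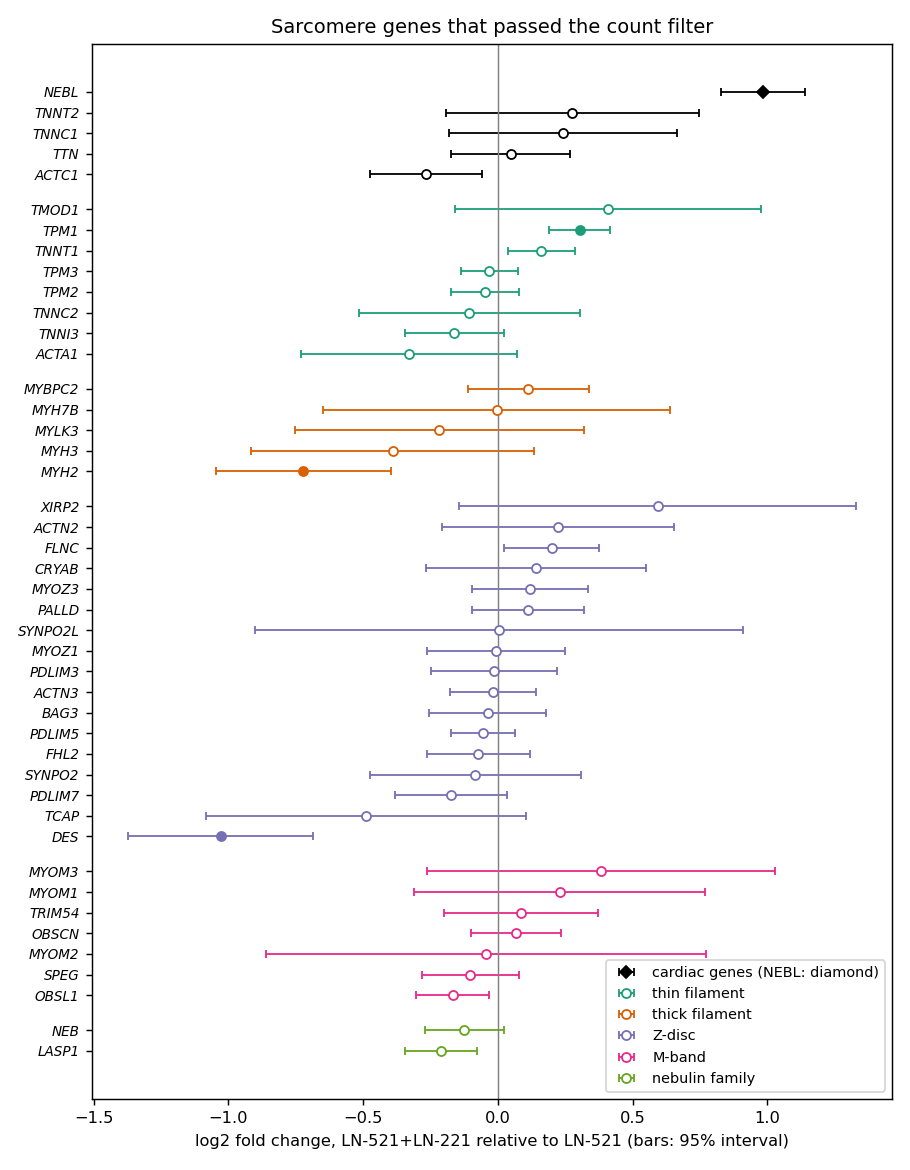
Log2 fold change on the mixed coating relative to the LN-521 coating (x axis, bars for the 95% interval) of the 5 genes of the set that passed the filter and of 39 further sarcomere genes that passed it, ordered within each list. Filled circles passed the threshold (TPM1, MYH2 and DES), the diamond is NEBL, given without a test, and the remaining genes lie on both sides of 0.

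None of the other nebulin relatives passed the threshold. LASP1 (ENSG00000002834), a short LIM-domain relative at adhesions, was at 152, 149 and 132 CPM on LN-521 alone and 131, 118 and 126 CPM on the mixed coating, without overlap. Its log2 fold change was -0.21 ± 0.06 (SE; edgeR adjusted p = 0.0948), and it passed with DESeq2 (adjusted p = 0.0459), without a filter (adjusted p = 0.0227) and with the replicate number as a block (adjusted p = 0.0416). NEB, the giant nebulin of skeletal muscle, was at 46.5 ± 3.19 and 42.7 ± 0.900 CPM (SD, n = 3 each; -0.12 ± 0.07, SE; edgeR adjusted p = 0.442). NEB shares 166 exonic bases with RIF1 on the opposite strand, which was at 518 to 656 CPM (log2 fold change 0.22, edgeR adjusted p = 0.110). If counting ignored strand, reads of NEB and RIF1 may not be separated. NRAP, a nebulin-related anchoring protein of muscle, had 0 to 2 counts per library. Of the 3 genes, 2 were tested and 0 passed (beside 2.53% of all genes), with 1 at an unadjusted p under 0.05 (beside 2561 of 17608). CPM of the 2 tested genes was lower on the mixed coating without overlap, beside 9.68% of all genes tested. With 2 genes no share can be read from this.

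The mean length of the NEBL transcripts that the reads were assigned to can be read from the ratio of counts to TPM. It was 5046, 4292 and 4764 bases on LN-521 alone and 4910, 4693 and 4655 bases on the mixed coating, with means of 4701 ± 381 and 4752 ± 137 bases (SD, n = 3 each). The groups overlapped in mean length, and did not in level. Both means lie between NEBL-203 (3008 bases) and NEBL-202 (9216 bases). More than 1 mix of the 13 transcripts gives such a mean, so the share of each transcript was not resolved. The calculation used a line fitted in each library on 462 to 501 genes with a single annotated transcript and at least 200 counts. On these same genes it came within 5% of the annotated length for at least 96.1% of genes in each library. That share describes the fit and is no independent check of the NEBL length.

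**Figure D4:**
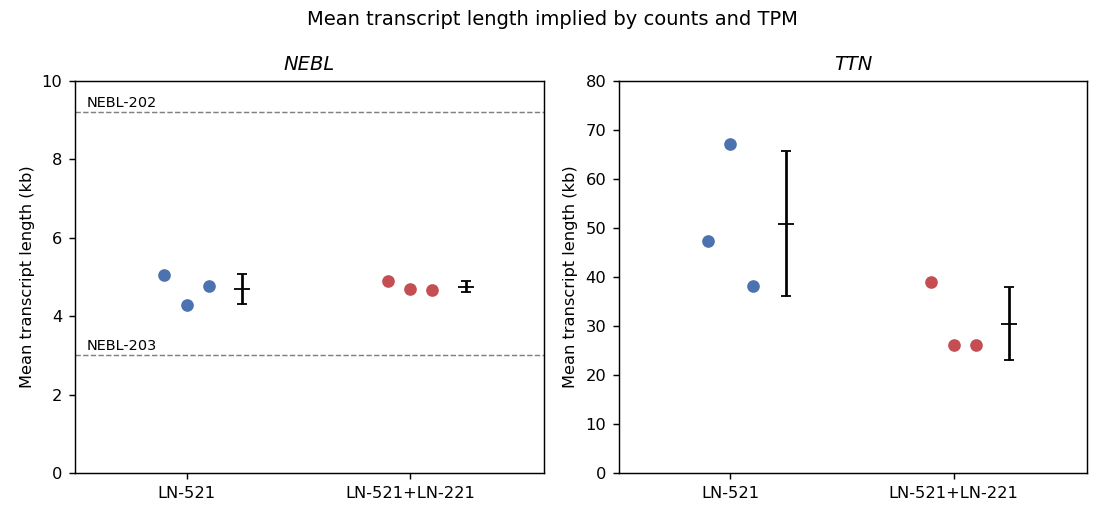
Mean transcript length (kb, y axis from 0) implied by counts and TPM for NEBL (left) and TTN (right) in each library, with black marks for the mean and bars for 1 SD (n = 3 each). Dashed lines give the lengths of NEBL-203 and NEBL-202. NEBL stayed between 4292 and 5046 bases in all 6 libraries, and TTN ranged from 26027 to 67142 bases.

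The cell type markers showed pluripotent cells on both coatings with cardiomyocyte markers other than TNNI3 at low levels. The 8 cardiomyocyte markers summed to 47.2 to 52.0 TPM on LN-521 alone and 45.5 to 47.8 TPM on the mixed coating, nearly all of it TNNI3. Without TNNI3 the sums were 4.30 to 6.59 and 5.48 to 5.89 TPM. NPPA, the atrial hormone gene, was at 0 in all libraries, MYL2, the ventricular light chain, had at most 1 count, and NKX2-5, the cardiac transcription factor, had 0 to 5 counts on LN-521 alone and 0 to 1 on the mixed coating. None of the 4 cardiomyocyte markers tested passed. The 7 pluripotency markers summed to 2491 to 2785 TPM on LN-521 alone and 2367 to 2569 TPM on the mixed coating. Of them 4 of 7 passed, beside 2.53% of all genes. NANOG (-0.73, edgeR adjusted p = 0.000165), TDGF1 (-0.65, adjusted p = 8.23e-06) and POU5F1 (-0.36, adjusted p = 0.00366) fell, and LIN28A (0.23, adjusted p = 0.00737) rose.

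The summed levels of the markers of other cells differed between the lists. The sums on LN-521 alone and on the mixed coating were 1.92 to 3.33 and 2.00 to 2.78 TPM for skeletal muscle (7 genes), 36.2 to 43.3 and 29.9 to 40.3 TPM for smooth muscle (7 genes), 80.1 to 94.5 and 83.9 to 100.01 TPM for fibroblasts (7 genes, LUM at 0) and 1.16 to 2.30 and 0.720 to 1.94 TPM for endoderm (6 genes, TTR at 0). No tested gene of these 4 lists passed. Endothelial markers (6 genes) summed to 28.9 to 36.9 and 25.5 to 29.6 TPM, and 2 of 4 tested passed, beside 2.53% of all genes, KDR lower (-0.37, edgeR adjusted p = 0.00742) and VWF higher (0.95, adjusted p = 0.0272). Neural markers (6 genes) summed to 112.5 to 123.4 and 130.5 to 133.0 TPM without overlap. All 4 neural markers tested had positive log2 fold changes (median 0.26), and 1 of them, STMN2, a growth cone protein, rose (0.47, edgeR adjusted p = 0.00130). The part of these shifts in the NEBL difference was not tested. In bulk RNA, fewer cells of a type and less RNA per cell cannot be told apart.

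Among 18 regulator genes of heart and muscle, mostly transcription factors, 8 were tested and 0 passed (beside 2.53% of all genes), with a median of -0.093. By unadjusted p, 1 of the 8 was under 0.05, beside 2561 of 17608 genes. Of these 18 genes, 13 were below 1 TPM in every library. Among 12 genes of cardiac excitation, calcium handling and natriuretic hormones, 8 were tested with a median of -0.18. Of these 8, 3 had an unadjusted p under 0.05, beside 2561 of 17608 genes. Past the threshold 1 of them, HCN4, fell, beside 1.14% of all genes that were lower. HCN4 (ENSG00000138622), the pacemaker channel, was at 18.4, 19.4 and 18.5 CPM on LN-521 alone and 14.6, 15.1 and 14.3 CPM on the mixed coating. The groups did not overlap (-0.36 ± 0.09, SE; edgeR adjusted p = 0.0324). The call was lost with DESeq2 (adjusted p = 0.0508), with limma on TPM (adjusted p = 0.728 to 0.832) and in 5 of the 6 fits that left out a library, all but the one without LN-521 replicate 1 (adjusted p = 0.0502 to 0.179).

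The non-muscle actin and myosin genes, which build the contractile bundles of stem cells, were all expressed. Of 25 genes, 25 were tested and 2 passed (8%, beside 2.53% of all genes), with 13 positive and 12 negative log2 fold changes and a median of 0.026. At an unadjusted p under 0.05 there were 5 of 25, beside 2561 of 17608 genes. CNN3 (ENSG00000117519), an actin-binding calponin, was at 305, 300 and 299 CPM on LN-521 alone and 343, 350 and 344 CPM on the mixed coating (0.20 ± 0.05, SE; edgeR adjusted p = 0.0374). VCL (ENSG00000035403), vinculin, which couples actin to adhesions, was at 294, 286 and 299 CPM on LN-521 alone and 248, 240 and 244 CPM on the mixed coating (-0.26 ± 0.05, SE; edgeR adjusted p = 0.00599). Neither gene's groups overlapped. VCL shares 1109 exonic bases with AP3M1 on the opposite strand, and AP3M1 did not pass the threshold (0.012, edgeR adjusted p = 0.955). If counting ignored strand, reads of VCL and AP3M1 may not be separated. The CNN3 call was lost with library size alone (adjusted p = 0.0635), without a filter (0.0647), with limma (0.570 to 0.832), without LN-521 replicate 3 (0.180) and without each LN-521+LN-221 replicate (0.129 to 0.241), and the VCL call with limma (0.693 to 0.832), without LN-521 replicate 3 (0.0600) and without LN-521+LN-221 replicate 2 (0.0894) or 3 (0.0522). ACTB, the cytoplasmic beta-actin, differed by -0.08 ± 0.06 in log2 units (SE; edgeR adjusted p = 0.599), and passed without LN-521 replicate 1 (-0.15, adjusted p = 0.0239).

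Around NEBL on chromosome 10, the 3 nearest annotated genes of any type on each side were pseudogenes and small RNA genes with 0 to 7 counts per library (AMD1P1, ENSG00000270727 and MIR4675 beyond the 3′ end, and ENSG00000228860, LUZP4P1 and RNU6-15P beyond the upstream start), and none was tested. C10orf113, inside the span of NEBL, had 1 to 6 counts. The protein-coding neighbours in the annotation were looked at after the values of these 6 genes had been seen. Beyond the 3′ end, PLXDC2 (0.050, edgeR adjusted p = 0.802) and MALRD1 (0.094, adjusted p = 0.936) did not pass. On the upstream side, SKIDA1 (ENSG00000180592, chr10:21513478-21526368, minus strand), which encodes a SKI/DACH-domain protein, was at 22.7, 21.2 and 16.5 CPM on LN-521 alone and 39.7, 39.1 and 38.4 CPM on the mixed coating. Its groups did not overlap, and LN-521 replicate 3 was the lowest well, as it was for NEBL. Means were 20.1 ± 3.27 and 39.0 ± 0.645 CPM (SD, n = 3 each), and the log2 fold change was 0.96 ± 0.10 (SE; 95% interval 0.75 to 1.16; edgeR adjusted p = 1.48e-05). SKIDA1 did not pass with limma on log2(TPM + 0.1) (adjusted p = 0.0521) or with limma without its TPM filter (adjusted p = 0.298), and it was singled out after its value had been seen. MIR1915HG, which lies between NEBL and SKIDA1, was at 31.1 ± 5.45 and 40.4 ± 2.00 CPM (SD, n = 3 each; 0.38 ± 0.10, SE; edgeR adjusted p = 0.0635), and MLLT10, whose span overlaps that of SKIDA1 without shared exonic bases in GENCODE 29, differed by 0.14 ± 0.06 in log2 units (SE; edgeR adjusted p = 0.229). Neither gene passed the threshold, and for both, as for SKIDA1, CPM was higher on the mixed coating without overlap, beside 10.2% of all genes tested. By TPM the ranges of MIR1915HG and MLLT10 overlapped.

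**Figure D5:**
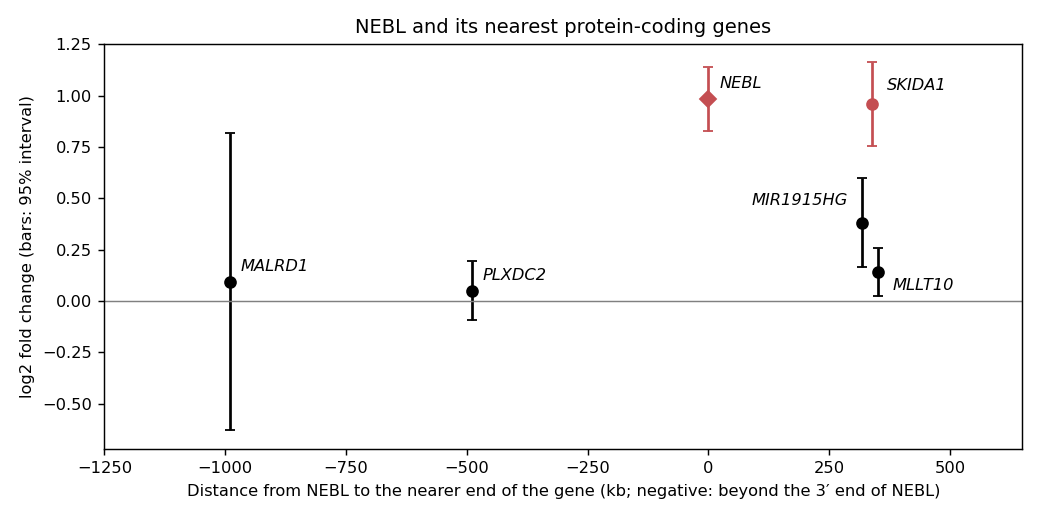
Log2 fold change on the mixed coating relative to the LN-521 coating (y axis, bars for the 95% interval) of NEBL (diamond), the 2 nearest protein-coding genes beyond its 3′ end and the 3 nearest on the upstream side, against their distance from NEBL in kb. SKIDA1 at 0.96 stood beside NEBL at 0.98, and the 2 genes beyond the 3′ end of NEBL lay at 0.050 and 0.094.

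The 5 genes whose log2 CPM followed NEBL most closely over the 6 libraries, by Pearson's r, were SOAT1, ATP2B4, FRZB, CTNNB1 and SAMHD1, each at r = 0.998. They are the highest of all genes tested, and the 6 libraries fall into 2 coatings, so the values describe these libraries and carry no p. None of the 5 is a sarcomere gene, and nothing is read from that, since few of the 17608 genes tested are. SOAT1, a sterol acyltransferase, had a log2 fold change of 1.10, ATP2B4, a plasma membrane calcium pump, 0.50, FRZB, a secreted Wnt antagonist, 1.35, CTNNB1, beta-catenin, 0.13, and SAMHD1, a nucleotide hydrolase, 0.28. Fold changes from 0.13 to 1.35 gave the same r, which measures the shape over the wells and not the size of the difference.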

How the data were processed

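Estimated counts (expected counts that need not be whole) and TPM per Ensembl gene ID were deposited by the authors. Per the submitters' processing notes, cutadapt, STAR 2.5.2b, RSEM 1.2.31 and the build hg38 were used; their settings, the annotation and the use of strand are not given in the sources used here. The authors deposited a sample sheet that lists 1 sequencing batch. Counts were rounded and tested with edgeR 4.0.16 (TMM, filterByExpr with a minimum of 10 counts, robust quasi-likelihood fit, R 4.3.3), checked on simulated data, with adjustment over 17608 genes and a threshold of 0.05. Alternatives used DESeq2 1.42.0, limma 3.58.1 on log2(TPM + 1) or log2(TPM + 0.1) for genes at 1 TPM in 3 libraries, other scalings and filters, a replicate block, and each library left out. Positions are from GENCODE 29 and RefSeq tables (GRCh38). The members and lists were chosen with earlier results of these data known. Named genes are the 10 members, listed genes past the threshold, fixed comparators (NEB, NRAP, LASP1, TNNI3, ACTN2, TPM1, ACTB), overlapping and neighbouring genes, and the 5 genes most like NEBL; others were chosen after their values were seen.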

Additional observations from a re-analysis of the deposited data

How the results depend on the processing

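Leaving out NEBL, which was given no test, none of the members passed the threshold in any of the 15 alternatives. Over all genes, 446 passed in the fit reported, 718 without a filter (46.8% of them higher, against 55.2%), 44 with limma on log2(TPM + 1), 20 on log2(TPM + 0.1) and 1 without the TPM filter, and 194 to 1179 with a library left out. Listed sarcomere genes past the threshold numbered 3 in the fit reported, 0 in the 3 limma fits, and 1 (without LN-521 replicate 3) to 3 with a library left out. Listed non-muscle genes numbered 2 in the fit reported, 1 with library size alone, 0 in the 3 limma fits and 0 to 5 with a library left out, with 5 without LN-521 replicate 1. Listed regulator and excitation genes numbered 1 in the fit reported, 0 with DESeq2 and in the 3 limma fits, and 0 to 2 with a library left out. The log2 fold change of TTN ranged from -0.040 to 0.19 with a library left out and its sign turned without LN-521 replicate 3 (-0.040) and without LN-521+LN-221 replicate 3 (-0.0057). The causes of these changes were not tested.

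Wells with the same replicate number showed no sign of pairing, as their deviations correlated at 0.047, -0.022 and 0.0090. Such correlations cannot show that the wells were unpaired. With a replicate block 646 genes passed, 4 listed sarcomere genes (LASP1 added), 3 non-muscle genes (ZYX added), 1 regulator or excitation gene and, NEBL aside, 0 members. Depth limits TNNI1, MYH6, MYH7, MYL4 and MYL7, which had under 13 counts in every library.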
